A study of Mus musculus with 9 samples.

Results

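The 10 genes described here act in mitochondrial fusion, fission and the removal of damaged mitochondria: Mul1, Mfn1, Mfn2, Opa1, Oma1, Yme1l1, Dnm1l, Fis1, Mff and Pink1. They were listed by their gene symbols, with earlier results of these data known. The paper had reported Mul1 as upregulated in KO testes from these data, so its choice was not independent of them. Each gene was found as 1 row among the 38674 genes of the table, of which 25173 had reads in at least 1 animal. The samples were whole testes, freed of the tunica albuginea, of 9 male C57BL/6 mice: 3 Pfn3+/+ (WT), 3 Pfn3+/- (Het) and 3 Pfn3-/- (KO). Pfn3 encodes profilin 3, an actin-binding protein of male germ cells, and the mutant alleles were small deletions made with CRISPR/Cas9 in its coding sequence, backcrossed to C57BL/6. Several deletion lines were established, and which of them was sequenced is not given in the sources used here. The methods give an age of 2 to 6 months for the males of all experiments, without the age of each animal. All cells of a KO mouse and the diploid cells of a Het mouse carried the deletion, so no group was limited to 1 cell type.

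Mitochondria fuse and divide continually. The mitofusins Mfn1 and Mfn2 join outer membranes, and Opa1 joins inner membranes and shapes the cristae. The inner membrane proteases Oma1 and Yme1l1 cleave Opa1 into its short forms. Division is carried out by the dynamin-like GTPase Dnm1l (Drp1), which is drawn to the outer membrane by receptors such as Mff and Fis1. Pink1 is a kinase that builds up on damaged mitochondria and starts mitophagy, and Mul1 is a ubiquitin and SUMO ligase of the outer membrane that acts on mitofusins and on Dnm1l. In spermatids, mitochondria line up and wrap around the flagellum to form the sheath of the sperm midpiece.

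RNA was measured with QuantSeq, which reads polyadenylated transcripts only close to their 3′ ends. Values are normalized counts, meaning reads on a gene divided by 1 size factor per library. Reads here are units of the gene counts prepared with the program StringTie. Between 3375546 and 4287335 reads per animal fell on genes, and 3 reads, taken as the limit of detection for counting error only, correspond to 2.58 to 3.71 normalized counts. Pfn3 itself had 592, 383 and 373 normalized counts in WT animals 1, 2 and 3, then 136, 339 and 326 in Het and 74.7, 215 and 279 in KO animals. A 3′ tag can lie outside a deleted stretch, so Pfn3 reads in KO animals do not check the genotype labels. Testis markers were present: all 6 of 6 markers of elongating spermatids had a mean of at least 10 normalized counts, and 4 of 5 epididymis markers (Defb12, Lcn5, Lcn8 and Adam7) were at or under 3 reads in every animal.

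Germ cell markers were compared as summed levels, with no test. The summed level of the 6 elongating spermatid markers was 241402 to 256634 normalized counts in WT, 183452 to 223058 in Het and 126612 to 203878 in KO animals. Summed round spermatid markers (6 of 6) were 7572 to 9346 in WT, 7326 to 7678 in Het and 4417 to 7134 in KO animals, and summed spermatocyte markers (6 of 6) were 4357 to 5818 in WT, 4498 to 7061 in Het and 6107 to 7450 in KO animals. For these 3 lists the sums did not overlap between KO and WT animals, while Het and WT animals overlapped for round spermatids and spermatocytes. Of single genes 19.9% had no overlap between KO and WT animals, but that share is not a background for sums. A sum follows its most abundant genes, and the markers were not compared singly. The paper tested its own marker lists in these data, among them transition proteins and protamines, and reported no significant difference between genotypes. From this it concluded that the quantity and development of sperm cells were unaffected. Summed spermatogonia markers (6 of 6) overlapped, with 232 to 419 in WT, 212 to 304 in Het and 205 to 248 in KO animals, and so did those of Sertoli cells, Leydig cells, macrophages and erythrocytes. In bulk tissue, fewer cells of a type and less RNA per cell cannot be told apart, and the part of these markers in the results below was not tested.

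Mul1 was the gene of the 10 with the largest difference between genotypes. Its 3 WT animals had 6.19, 6.75 and 6.76 normalized counts, from 5, 7 and 7 reads. The Het animals had 163, 5.59 and 29.6, and the KO animals had 29.2, 213 and 289.6. All KO animals were above all WT animals, while Het animal 2 lay below every WT animal and Het animal 1 lay near KO animal 2. The mean was 6.57 ± 0.33 (SD, n = 3) in WT, 66.2 ± 85.1 in Het and 177 ± 134 in KO animals. The WT animals thus agreed closely with each other, and the mutant animals did not.

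With limma on log2(normalized count + 1), Mul1 was higher in KO than in WT animals by 4.03 on the log2 scale (standard error 0.85, 95% interval 1.97 to 6.09), with a limma p of 0.00288 and an adjusted p of 0.514 over all genes. With limma it therefore did not pass an adjusted p under 0.05 together with a log2 change, up or down, of more than 1.5. The study applied these cutoffs to DESeq2, and it reported Mul1 as higher in KO testes by RNA-seq and by qRT-PCR. The call depended on the test and, with limma, on whether KO replicate 1 was included. DESeq2 was not refitted with an animal left out. DESeq2 on the recovered reads gave a log2 fold change of 4.76 with an adjusted p of 2.79e-05, which passes these cutoffs. The edgeR fit gave 4.75 with an adjusted p of 0.399. Leaving out each animal in turn, limma gave 3.41 to 5.04 with adjusted p-values from 0.0323, without KO replicate 1, to 0.812. Mul1 entered this comparison only through its KO animals, since no WT animal reached the 10 normalized counts that the filter asked for.

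An exact two-sided permutation test of Mul1 alone, over the animals, gave p = 0.1 for KO against WT, the smallest value that 3 against 3 animals allow. The exact permutation p was 0.4 for Het against WT and 0.3 for KO against Het. In Het against WT, Mul1 did not pass the filter, and without it the limma log2 difference was 2.09 (standard error 1.10, adjusted p = 0.794). KO exceeded Het animals by 1.94 (standard error 1.36, limma adjusted p = 0.973), and by 0.80 without Het replicate 2 to 3.12 without Het replicate 1. The order WT, Het, KO of the means is thus separated beyond the spread of the animals at neither step.

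**Figure D1:**
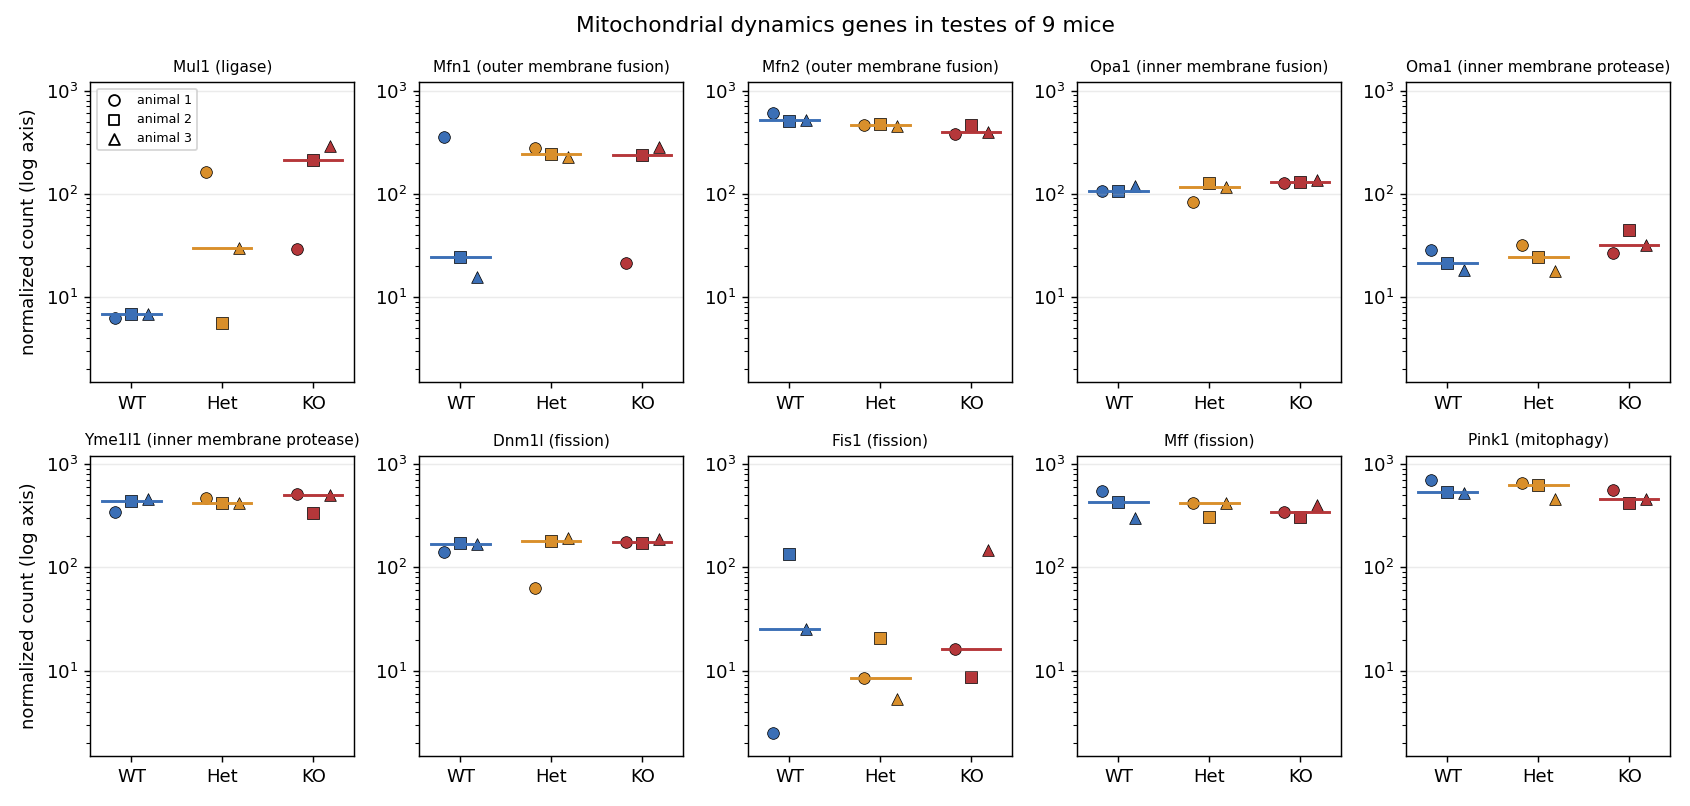
Normalized counts (log axis) of the 10 genes in the 9 animals. Each point is 1 animal, shaped by its number, each line is the median of a genotype, and the panel title gives the role of the gene. Mul1 is low in all WT animals and scattered in Het and KO animals, Mfn1 and Fis1 are scattered within genotypes, and the other 7 genes lie close together.

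Mul1 (ENSMUSG00000041241) lies on the plus strand of chromosome 4 of GRCm38 from 138434671 to 138442265. The annotation gives it 3 coding transcripts with 3 distinct 3′ ends, and no annotated gene overlaps it. Reads of a 3′ tag library can be assigned to a neighbour where transcript ends lie close, so the nearest genes of the table were examined. The next gene on its 3′ side is Camk2n1, an inhibitor of CaM kinase II, on the same strand at a distance of 12049 bp. Camk2n1 had 680, 543 and 617 normalized counts in WT, 885, 1093 and 676 in Het and 740, 393 and 576 in KO animals. Of the animals with high Mul1, KO animal 2 had the lowest Camk2n1 of all, KO animal 3 lay above WT animal 2, and Het animal 1 lay above every WT and KO animal. On the other side AB041806, at 36957 bp, was at 0 in all 9 animals. Summed with both neighbours, Mul1 gave 686, 550 and 624 in WT, 1049, 1099 and 706 in Het and 770, 606 and 865 in KO animals. Camk2n1 makes up most of that sum in every animal and overlaps between WT and KO animals by itself, so the sum does not bear on where Mul1 reads were assigned.

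The promoter of Mul1 is shown because Mul1 is the member with the largest difference. It is the RefSeq stretch of 300 bases around the transcript start on GRCm38.p6, chr4:138434422-138434721, plus strand, 5′ to 3′, with the E-box CACGTG in capitals.
Mul1 promoter: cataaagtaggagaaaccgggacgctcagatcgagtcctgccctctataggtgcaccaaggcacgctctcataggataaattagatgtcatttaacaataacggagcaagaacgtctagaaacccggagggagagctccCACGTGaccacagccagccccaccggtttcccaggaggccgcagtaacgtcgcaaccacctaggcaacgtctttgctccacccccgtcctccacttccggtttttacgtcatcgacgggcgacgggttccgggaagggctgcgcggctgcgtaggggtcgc
The E-box starts at position −111 from the transcript start, and the stretch holds 25 CG pairs and 58% G and C. An E-box is the sequence bound by many basic helix-loop-helix factors. Searched on both strands, CACGTG occurs in 7.17% of the 32544 distinct promoters of this length and in the promoters of 1 of the 10 genes, Mul1. TATAAA, the TATA box, occurs in 13.6% of all promoters and in those of 0 of the 10 genes, and CCAAT, the CCAAT box, occurs in 37.4% and in those of 6 genes: Dnm1l, Fis1, Mff, Mfn1, Opa1 and Yme1l1. All 10 genes were matched, with 15 promoter records. These matches describe letters only, and the motifs were chosen after the values were seen.

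Of the fusion genes, 0 passed the test in any comparison. Mfn1 (chromosome 3, 32529465 to 32579239, plus strand) had 357, 24.1 and 15.4 normalized counts in WT, 278, 245 and 225 in Het and 21.5, 235 and 282 in KO animals. WT animal 1 was the highest of all 9, while WT animals 2 and 3 and KO animal 1 were far below the rest. The log2 difference was 1.11 for KO against WT (standard error 1.47, 95% interval −2.45 to 4.68, limma adjusted p = 0.763), and 0.27 to 2.49 with each animal left out. For Het against WT it was 2.24 (standard error 1.14, interval −0.53 to 5.004, limma adjusted p = 0.779), which ran from 1.396 without WT replicate 3 to 3.62 without WT replicate 1, where the limma adjusted p was 0.0528. DESeq2 gave 0.94 for Het against WT. Within a genotype, Mfn1 spanned 23.1-fold among the WT and 13.1-fold among the KO animals, against 1.23-fold among the Het animals. Gnb4, a G protein subunit whose gene ends 1093 bp from Mfn1 on the opposite strand, had only 6.76 to 17.4 normalized counts.

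Mfn2 (chromosome 4, 147873599 to 147904704, minus strand), the other mitofusin, was even among animals. It had 612, 504 and 522 normalized counts in WT, 466, 477 and 450 in Het and 382, 459 and 397 in KO animals. All Het and all KO animals had less Mfn2 than any WT animal. Its log2 difference was −0.40 for KO against WT (standard error 0.18, interval −0.83 to 0.03, limma adjusted p = 0.611) and −0.23 for Het against WT (interval −0.64 to 0.18, limma adjusted p = 0.779). Neither difference passed the test, and both comparisons share the WT animals. Between KO and Het animals, which overlap, the difference was −0.17 (standard error 0.14).

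Opa1 (chromosome 16, 29579334 to 29654884, plus strand) had 106, 107 and 119 normalized counts in WT, 82.2, 126 and 116 in Het and 126, 129 and 136 in KO animals. Every KO animal lay above every WT and every Het animal, by a small margin: the highest Het animal had 125.7 and the lowest KO animal 126.3. The log2 difference for KO against WT was 0.23 (standard error 0.18, interval −0.21 to 0.67, limma adjusted p = 0.657), and for KO against Het 0.29 (interval −0.22 to 0.80, limma adjusted p = 0.973). The protease Oma1 (chromosome 4, 103313812 to 103371868, plus strand), which is activated by mitochondrial stress, had few reads. It had 28.5, 21.2 and 18.3 normalized counts in WT, 32.1, 24.2 and 17.99 in Het and 26.6, 44.5 and 32.2 in KO animals. KO animals 2 and 3 had the highest values of the 9 and the groups overlapped, with a log2 difference of 0.57 for KO against WT (standard error 0.32, interval −0.20 to 1.35, limma adjusted p = 0.629). Yme1l1 (chromosome 2, 23156369 to 23199260, plus strand), the protease that cleaves Opa1 constitutively, had 343, 443 and 456 normalized counts in WT, 475, 417 and 419 in Het and 509, 334 and 507 in KO animals. Its groups overlapped in each comparison, and its KO against WT difference was 0.11 (standard error 0.25, interval −0.49 to 0.70, limma adjusted p = 0.870).

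Of the fission genes, Dnm1l (chromosome 16, 16312230 to 16358959, minus strand) had 142, 173 and 169 normalized counts in WT, 63.3, 180 and 195 in Het and 175, 174 and 189 in KO animals. Het animal 1 stood apart, below all others. The 3 KO animals lay above the 3 WT animals by a small margin, and the difference of 0.16 did not pass the test (standard error 0.19, interval −0.29 to 0.61, limma adjusted p = 0.735). Het against WT differed by −0.30 (standard error 0.46), and by 0.22 without Het replicate 1.

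Fis1 (chromosome 5, 136953275 to 136966234, plus strand) was as uneven as Mul1, without following genotype. It had 2.48, 135 and 25.1 normalized counts in WT, 8.503, 20.49 and 5.29 in Het and 16.3, 8.71 and 147 in KO animals. WT animal 2 and KO animal 3 were far above the rest, and WT animal 1, with 2 reads, was under the limit of detection. The log2 difference for KO against WT was 0.34 (standard error 1.57, interval −3.48 to 4.15, limma adjusted p = 0.944), and leaving out 1 animal at a time moved it from −1.03 to 1.61. Cldn15, a claudin gene, starts 382 bp past the end of Fis1 on the same strand and had 0 to 6.77 normalized counts. The receptor Mff (chromosome 1, 82724890 to 82752394, plus strand) had 551, 428 and 301 normalized counts in WT, 420, 306 and 422 in Het and 342, 308 and 402 in KO animals. All 3 groups overlapped, and KO against WT differed by −0.25 (standard error 0.27, interval −0.90 to 0.41, limma adjusted p = 0.716).

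The mitophagy kinase Pink1 (chromosome 4, 138313409 to 138326307, minus strand) had 706, 540 and 522 normalized counts in WT, 655, 634 and 461 in Het and 567, 426 and 456 in KO animals. KO animals 2 and 3 were the lowest of the 9, but KO animal 1 lay above WT animals 2 and 3. The log2 difference was −0.28 for KO against WT (standard error 0.21, interval −0.80 to 0.23, limma adjusted p = 0.649) and −0.02 for Het against WT (limma adjusted p = 0.985). Mfn2, Dnm1l, Mff and Pink1 each overlap at least 1 other annotated gene, so their counts could include reads of it.

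**Figure D2:**
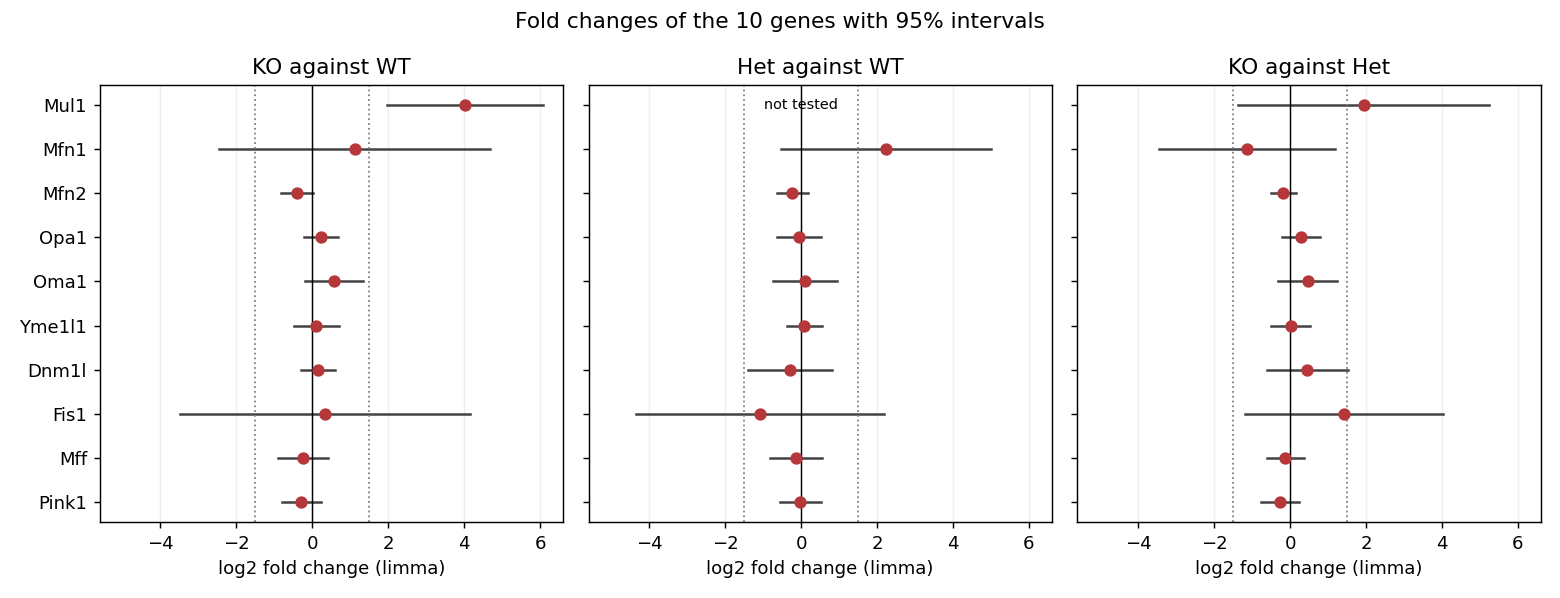
Log2 fold changes (limma, horizontal axis) of the 10 genes in the 3 comparisons. Points are estimates, bars are 95% intervals and dotted lines mark the cutoff of 1.5 in either direction. In KO against WT the Mul1 interval, 1.97 to 6.09, lies past the cutoff, the Mfn1 and Fis1 intervals cross it on both sides, and the other 7 lie inside it.

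Over the 10 genes, limma called 0 in KO against WT, where it called 0.0352% of all 14223 genes tested, and 1, Mul1, had an unadjusted p under 0.05, against 8.07% of all genes. DESeq2 called Mul1 alone of the 10, against 0.531% of 19578 genes. Mul1 was listed with its reported rise in these data known, and it passed the limma filter only through its KO animals. Its p and its call are therefore no independent result. In 4 of the 10 genes, Mul1, Mfn2, Opa1 and Dnm1l, no KO value fell within the WT values or the reverse, which held for 19.9% of all genes. In Het against WT 9 of the genes were tested and 0 called, against 0% of 14216 genes with limma, where 475 of all genes had an unadjusted p under 0.05, and 0 were called by DESeq2, against 0.206%. Mfn2 alone of the 9 had no overlap between Het and WT animals, against 13.3% of all genes. In KO against Het, limma called 0 of 10, against 0.0558% of 14343 genes, DESeq2 called 0, against 0.269%, and Opa1 alone had no overlap, against 10%. With limma, 0 of the genes had an unadjusted p under 0.05 in Het against WT and KO against Het, against 3.34% and 3.56% of all genes. EdgeR called 0 of the genes in each comparison. Over all genes it called 5 of 14223 in KO against WT, 0 of 14216 in Het against WT and 7 of 14343 in KO against Het. For 7 of the genes (Mfn2, Opa1, Oma1, Yme1l1, Dnm1l, Mff and Pink1) the interval of the KO against WT difference lay wholly inside 1.5 in either direction. The intervals of Mfn1 and Fis1 reached past the cutoff on both sides, so for these genes changes of that size were not detectable in 3 animals a group.

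The genes differed most in how evenly they were counted. The highest over the lowest of the 9 animals, with values under 3 reads set to that limit, was 51.8-fold for Mul1, 39.5-fold for Fis1 and 23.1-fold for Mfn1. In the other 7 it ran from 1.53-fold for Yme1l1 to 3.08-fold for Dnm1l. Among 14165 genes with a mean of at least 10 normalized counts, 15.6% had a range of at least 10-fold over the 9 animals, and 3 of the 10 genes did. Ranges of at least 10-fold occurred also within a genotype, in 6.40% of genes among the WT, 6.49% among the Het and 4.43% among the KO animals. Fis1 and Mfn1 had such a range within WT and within KO animals, and Mul1 within Het animals (29.3-fold) and nearly within KO animals (9.92-fold).

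**Figure D3:**
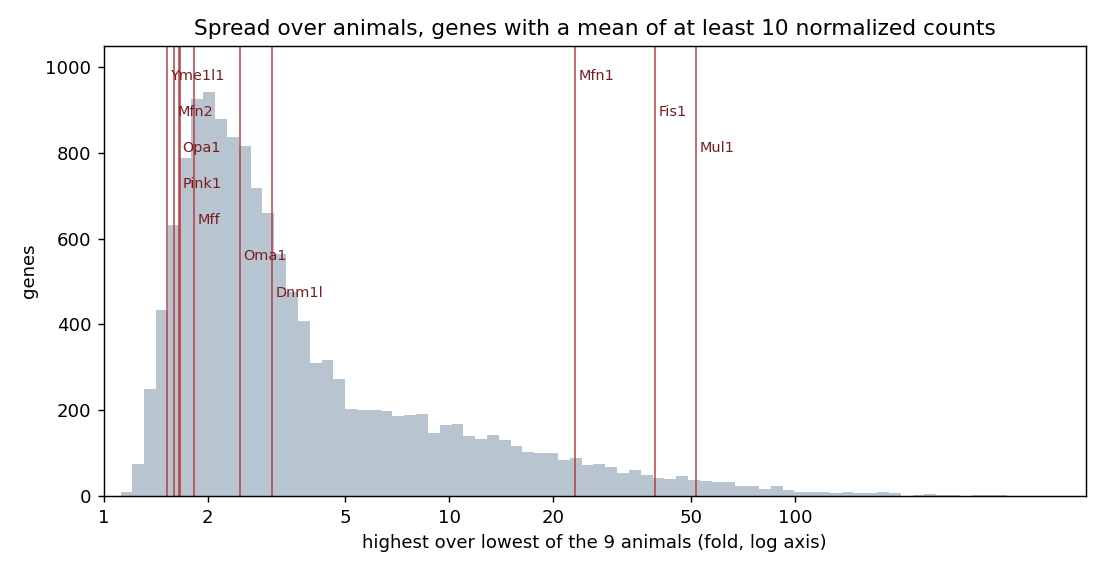
Distribution over 14165 genes of the highest over the lowest of the 9 animals (fold, log axis; bars count genes). Red lines mark the 10 genes: Mfn1, Fis1 and Mul1 lie in the upper tail at 23.1, 39.5 and 51.8, and the other 7 at or below 3.08.

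The animals that stood apart were not the same for the 3 uneven genes. The widest gap, of at least 2 on the log2 scale, set Het animal 1 and KO animals 2 and 3 above the others for Mul1, WT animals 2 and 3 and KO animal 1 below the others for Mfn1, and WT animal 2 and KO animal 3 above the others for Fis1. Such a gap occurred in 16.2% of the 14165 genes. Of these, no gene but Mul1 split the animals the way Mul1 did, and 5 split them in the opposite direction: Arhgef18, Mdh2, Ntpcr, Pfdn2 and Stoml2. Oaz2 split the animals as Fis1 did, 1700012C14Rik and Gm5901 split them opposite to Fis1, and Sptan1 split them opposite to Mfn1. These descriptions were chosen after the values were seen and carry no test.

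The 69 other genes of the pathway found in the table cover fission, fusion, cristae, mitophagy, transport, Mul1 partners and the sperm mitochondrial sheath. In KO against WT 68 were tested, and limma called 0, beside 0.0352% of all genes. Of the 68, 31 were higher and 37 lower in KO animals. The median log2 difference was −0.06, beside 0.02 over all genes. At an unadjusted p under 0.05, 2 were higher and 4 lower, which is 8.82% of those tested beside 8.07% of all genes, and 11 had no overlap between the groups, 16.2% beside 19.9%. Both shares are near or below those of all genes. By list, 0 of 10 tested fission genes, 1 of 4 fusion genes (Msto1, lower), 0 of 13 cristae genes, 1 of 22 mitophagy genes (Optn, lower), 1 of 4 transport genes (Rhot1, higher), 0 of 5 Mul1 partners and 3 of 10 sheath genes (1 higher, 2 lower) had such a p. In Het against WT 2 of 68 (both higher) had an unadjusted p under 0.05, 2.94% beside 3.34% of all genes. In KO against Het 2 of 67 (both lower) did, 2.99% beside 3.56% of all genes. Limma and DESeq2 called 0 in either comparison. Over all genes, limma called 0% in Het against WT and 0.0558% in KO against Het, and DESeq2 called 0.206% and 0.269%.

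Among the sheath genes, Slc25a31, the ADP/ATP carrier of male germ cells, had 279, 305 and 270 normalized counts in WT and 425, 401 and 391 in KO animals (log2 difference 0.51, limma adjusted p = 0.610). Armc12, which is needed for mitochondria to line up along the flagellum, had 701, 542 and 466 in WT and 334, 236 and 377 in KO animals (−0.86, limma adjusted p = 0.610). Tbc1d21, a sheath protein with a Rab GTPase-activating domain, had 1582, 981 and 882 in WT and 665, 323 and 690 in KO animals (−1.07, limma adjusted p = 0.610). These genes were named because their KO and WT animals did not overlap at an unadjusted p under 0.05, so that separation is no result. Over the whole pathway list 16.2% of genes had no overlap, beside 19.9% of all genes. None of the sheath genes passed the adjusted test. The KO animals also had lower summed spermatid markers than the WT animals, and the part of these markers in the differences was not tested. Msto1, which promotes fusion, had 63.1, 97.4 and 90.8 in WT and 48.1, 22.3 and 29.5 in KO animals (−1.35, limma adjusted p = 0.610).

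In Het against WT, the fission regulators Spire1 (log2 difference 0.83) and Mtfr1 (0.64) were the genes with an unadjusted p under 0.05, both with a limma adjusted p of 0.779. Mtfr1 had 908, 718 and 763 normalized counts in WT, 1322, 1097 and 1289 in Het and 934, 411 and 730 in KO animals, so it was highest in the heterozygotes. In KO against Het, Mtfr1 differed by −0.91 and Smcp, a cysteine-rich protein of the sperm mitochondrial capsule, by −0.68, both with a limma adjusted p of 0.973.

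Rhot1 (Miro1), which links mitochondria to motor proteins, was the only gene of the pathway list that DESeq2 called in KO against WT. That is 1 of the 69 genes of the list, beside 0.531% of all 19578 genes that DESeq2 tested. It had 19.8, 13.5 and 16.4 normalized counts in WT, 25.5, 436 and 39.2 in Het and 16.3, 402 and 472 in KO animals. Het animal 2 and KO animals 2 and 3 were high, and KO animal 1 lay among the WT animals. The log2 difference was 3.10 with limma (standard error 1.26, adjusted p = 0.610) and 4.17 with DESeq2 (adjusted p = 0.00717). With edgeR the adjusted p was 0.602. Limma gave 4.65 without KO replicate 1 (adjusted p = 0.0323), 2.38 without KO replicate 2 (adjusted p = 0.812) and 2.27 without KO replicate 3 (adjusted p = 0.786).

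**Figure D4:**
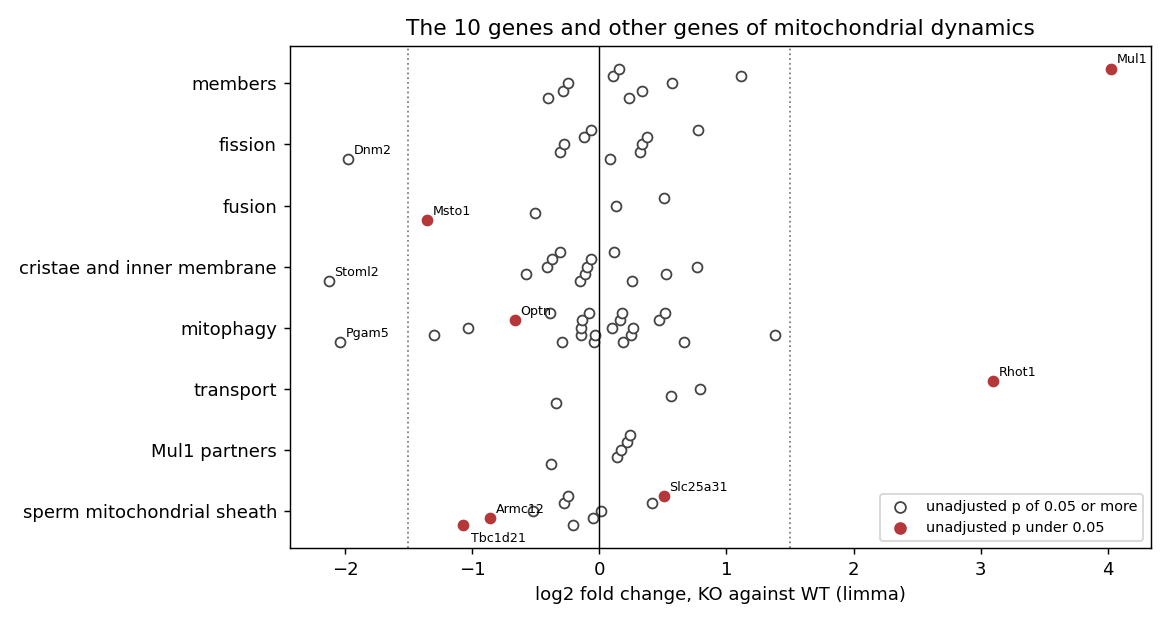
Log2 fold changes in KO against WT (limma, horizontal axis) of the 10 genes (top row) and of the 7 lists of other pathway genes. Each point is 1 gene, filled where the unadjusted p is under 0.05, and dotted lines mark 1.5 in either direction. Mul1 (4.03) and Rhot1 (3.10) lie far to the right, and most genes lie close to 0.

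Uneven counts occurred in the pathway list too. Of its 67 genes with a mean of at least 10 normalized counts, 9 had a range of at least 10-fold over the 9 animals: Stoml2, Pgam5, Phb2, Bnip3, Fkbp8, Dnm2, Sqstm1, Gabarap and Rhot1. Gabarap, an autophagosome protein, had 28.5 normalized counts in WT animal 1 and 37.8 in Het animal 1, and 695 to 1032 in the other 7 animals. Stoml2, a scaffold of the inner membrane, had 0.945, 3.87 and 1.79 in Het animal 1 and KO animals 2 and 3, the animals with the most Mul1 reads, and 26.0 to 59.8 in the other 6.

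Over the 9 animals, the genes whose log2 values followed Mul1 most closely, of 14164, included Pds5a (Pearson r = 0.95), Tmtc2 (0.93), Camk2d (0.93) and Kcnk10 (0.92). The most opposed were Gm16322 (−0.99), 4933402E13Rik (−0.98) and Klhl5 (−0.97). Of the other 9 genes, Oma1 (0.71) and Mfn1 (0.42) had the highest r with Mul1, and Mfn2 (−0.61) and Pink1 (−0.50) the lowest. The points share their libraries and depths and include the genotypes, so these r are descriptions over 9 animals.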

How the data were processed

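RNA of 9 testes was made into QuantSeq 3′ libraries. Per the submitters' processing notes and the methods, reads were trimmed with Trim Galore 0.4.5, aligned to GRCm38 with HISAT2 2.1 and assembled and counted with StringTie 1.3.3, pseudogenes were removed, and DESeq2 was used. The values deposited by the authors are a signal: reads per gene, each library scaled by 1 size factor. Read counts were recovered from the steps between low values, and 100% of values above 0 then came out whole (tolerance 0.01 read). The paper prepared the gene counts with a script of StringTie. The recovered reads are therefore units of those counts, and they were not checked against sequenced reads. Genotype and replicate number came from the sample titles. Nothing says how the animals of a genotype were related, and p-values measure the spread between them.

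Genes that reached 10 normalized counts in 3 or more of the animals compared were fitted with limma 3.58.1 (eBayes with a trend, R 4.3.3) on log2(value + 1), a scale that understates changes of low genes, with Benjamini-Hochberg adjustment over all genes. Only the 2 genotypes compared entered a fit. Alternatives were DESeq2 1.42.0 and edgeR 4.0.16 on the recovered reads, pseudocounts of 0.5 and 5, other filters, TMM factors, all 9 animals in 1 fit, a replicate block and each animal left out. The functions were tested on simulated data whose spread was set by the mean level of a gene. That test does not cover genes as uneven between animals as Mul1, Mfn1 and Fis1. Coordinates are those of GENCODE on GRCm38, and promoters those of RefSeq.

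The 10 genes, the pathway and marker lists and the tests were chosen with earlier results of these data known. All 10 genes are named. Of the genes most like Mul1, the 5 with the highest and the 3 with the lowest r were to be named, and 1 of them is not reported here. Of the pathway list, the text names genes called, and per comparison up to 3 in each direction with the largest fold change, an unadjusted p under 0.05 and no overlap. Gabarap, Stoml2, Optn, Rhot1 and the other genes with wide ranges were named after their values were seen. Figures were drawn with matplotlib 3.10.9.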

Additional observations from a re-analysis of the deposited data

How the results depend on the processing

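With 3 animals a group, 1 animal can decide a call. Of the 10 genes, limma called 0 in KO against WT, and 1, Mul1, was called with DESeq2 and without KO replicate 1 (0 to 1 with each animal left out). DESeq2 called 1 pathway gene, Rhot1. Over all genes DESeq2 called 0.531%, and limma without KO replicate 1 called 12 of 14223. For the 10 genes, the counts in Het against WT and KO against Het stayed at 0 in every alternative. Of 29 fold changes, 17 kept their direction in every alternative and 12 turned with an animal left out. For KO against WT these were Yme1l1 (−0.0244 to 0.31) and Fis1 (−1.03 to 1.61). For Het against WT they were Opa1 (−0.18 to 0.13), Oma1 (−0.0915 to 0.31), Yme1l1 (−0.0418 to 0.16), Dnm1l (−0.59 to 0.22), Fis1 (−2.45 to 0.19), Mff (−0.36 to 0.0767) and Pink1 (−0.11 to 0.14, and 0.0139 with edgeR). For KO against Het they were Mfn1 (−1.78 to 0.0501), Yme1l1 (−0.0852 to 0.22) and Dnm1l (−0.0595 to 0.74). The cause was not tested.

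The deviations of same-numbered animals had r from −0.14 to 0.188, and those of different-numbered animals had r from −0.242 to 0.188. These ranges overlapped, and replicate numbers were not taken to pair animals. With the replicate block, 0 of the 10 genes were called in each comparison, and Mul1 in KO against WT kept 4.03 with a limma adjusted p of 0.703. Over all genes the block gave 0 calls in KO against WT and 0 in KO against Het, where limma without it gave 5 and 8. In the order KO against WT, then Het against WT, then KO against Het, DESeq2 gave 104, 33 and 46 calls, all 9 animals in 1 fit gave 3, 3 and 4, and leaving out each animal gave 0 to 55, 0 to 5 and 0 to 40. In Het against WT, where limma called 0, a pseudocount of 5 gave 2, no filter 3, a filter on the mean 1 and TMM factors 1. Every member has 1 row, so summing rows of the same symbol gave no further value.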
